A study of Mus musculus with 12 samples.

Results

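The genes described here are 37 that code for scaffold and adhesion proteins, mainly of the excitatory synapse, and for proteins that bind them. They were chosen by name, with earlier results of these data known. Each was matched through its Ensembl identifier (GENCODE M21, GRCm38) to 1 of the 26409 genes in the deposited table. All 37 passed the filter on low values that left 18197 genes for testing. Their levels come from bulk RNA sequencing of the hippocampus of mice that lack Dek, a chromatin protein, and of wild-type (WT) mice. There were 3 mice in each of 4 groups: female WT, male WT, female Dek cKO and male Dek cKO. Here cKO stands for constitutive knockout: mice whose Dek exons 3 and 4 lie between loxP sites were crossed to CMV-Cre mice, the deletion passed through the germline, and the Cre was then bred out. The deletion is therefore present in all cells, from conception, in 1 mouse line, kept by heterozygous matings on a C57Bl/6 background. All animals had gone through behavior testing, were 6 to 12 months old, and gave their hippocampus within 6 weeks of the last assay. The 3 female WT columns carry the name prefix C57, and the other 9, male WT included, carry CMV. Prefix and genotype cannot be told apart within females.

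At an excitatory synapse, glutamate receptors sit in a dense protein layer under the membrane of the dendritic spine. PSD-95 (Dlg4) and its relatives hold receptors at the surface, Dlgap proteins link them to Shank, and Homer joins Shank to metabotropic glutamate receptors and to calcium stores. CaMKII, a kinase switched on by calcium, is the abundant enzyme of this layer and is needed for long-term potentiation in the hippocampus. Neuroligins and Lrrtm proteins, which hold leucine-rich repeats, reach across the cleft to presynaptic neurexins, while Kalrn, Dbn1 and other proteins shape the actin inside the spine.

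The genotype labels held in every library. Dek was at 44.2 to 51.9 TPM in WT and 5.55 to 9.25 TPM in cKO libraries, a log2 fold change of -2.74. TPM takes account of transcript length, so levels can be compared between genes, and the listed genes sum to 825750 to 845553 TPM a library. The sex labels of 2 libraries went against their Y-linked genes. In female cKO replicate 3, Eif2s3y reached 72.7 TPM and Ddx3y 20.4 TPM, while male cKO replicate 1 held 0.111 TPM for Eif2s3y and was listed at 0 for Ddx3y. Both stay in their labelled groups below, and the results are also given without them. All 8 neuron markers examined were present, with summed levels of 4232 to 4728 TPM in WT and 4173 to 4633 TPM in cKO libraries, and all CA1, CA3 and dentate gyrus markers were detected. Choroid plexus markers ranged from 72.5 to 3058 TPM in WT and from 46.5 to 4473 TPM in cKO, and no marker of any list passed the adjusted test. Astrocyte markers summed to 1222 to 1333 TPM in WT and 1104 to 2212 TPM in cKO, the highest in male cKO replicate 3, where Gfap was at 1267 TPM against at most 437 TPM elsewhere. Median log2 fold changes of the markers were -0.03 for neurons, -0.21 for CA1, 0.03 for CA3 and 0.24 for dentate gyrus. They were 0.33 for thalamus and 0.02 for cortex. In whole tissue, fewer neurons and less RNA per neuron cannot be told apart.

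The 37 genes covered a 210-fold range of level. Camk2a, the alpha subunit of CaMKII, was the highest at a mean of 1488 TPM and made up 25.9% of the summed level. Magi1, a scaffold whose guanylate kinase domain stands in inverted order, was the lowest at 7.10 TPM. Camk2a was the highest of the 37 and Magi1 the lowest in all 12 libraries. After Camk2a came Camk2b (648 TPM), Ppp1r9b (452), Dlg4 (371), Kalrn (236), Dbn1 (209), Dlgap1 (206) and Shank1 (197). In total 14 genes lay above 100 TPM and 7 lay below 30 TPM. Among the 36 neighbours in this order, 30 had overlapping ranges over the libraries. The 6 that did not were the 4 steps from Camk2a down to Kalrn and the steps from Lrrc4 to Nlgn3 and from Nlgn3 to Dlgap2.

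**Figure D1:**
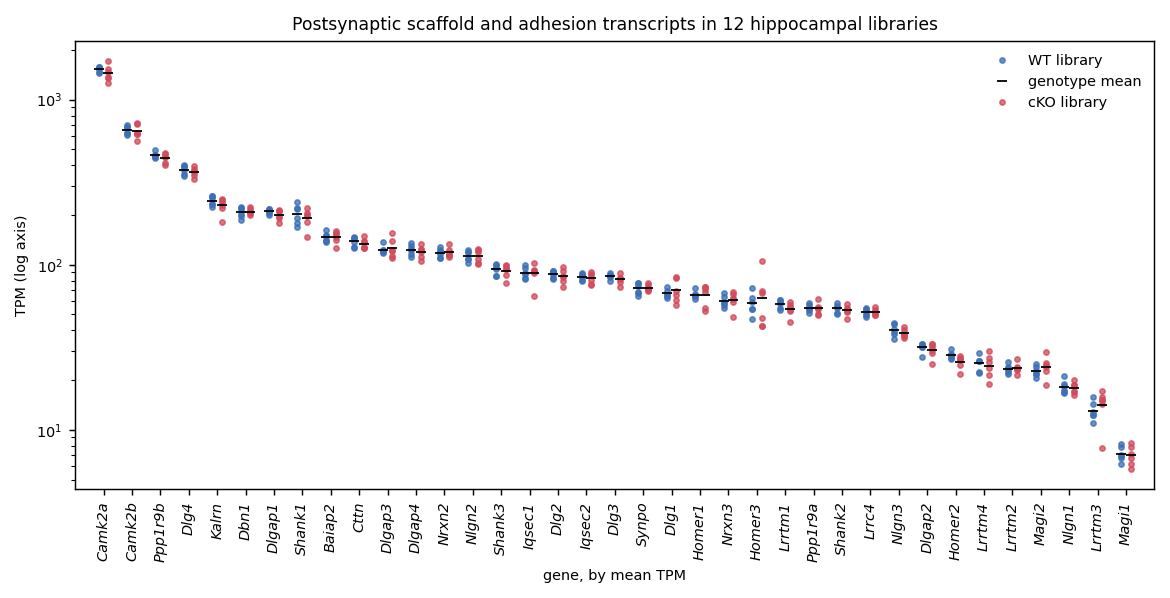
Level of each of the 37 genes (TPM, log axis) in the 6 WT and 6 Dek cKO libraries, ordered by mean, with 1 point for each library and a black dash for the genotype mean. Camk2a stands at the top and Magi1 at the bottom, and for every gene the points of both genotypes overlap.

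None of the 37 genes passed the test between Dek cKO and WT. The call required an adjusted p under 0.05 and a fold change over 1.2, which 0.148% of all tested genes met (27 of 18197). Adjusted p-values of the 37 ran from 0.780 to 0.999 (limma, Benjamini-Hochberg over all tested genes). None reached an unadjusted p of 0.05 either, a level that 6.64% of all genes reached, and the smallest was 0.0627 for Homer2. No gene had its 6 cKO values all above or all below its 6 WT values, a pattern seen upward in 0.572% and downward in 0.104% of all genes.

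The precision sets how large a difference could have gone unseen. The standard error of the log2 fold change had a median of 0.06 over the 37 genes, against 0.12 over all genes tested and 0.07 over the 9984 genes at or above the level of Magi1. In the fit on all 12 libraries, all 37 of the 95% intervals held 0. For 31 genes the whole interval lay within a 1.2-fold change in either direction, and for all 37 within a 1.5-fold change. The 6 wider ones were Shank1, Homer2, Homer3, Magi2, Lrrtm3 and Lrrtm4. These interval counts hold for that fit alone. Without the 2 libraries of conflicting sex, 3 genes, Camk2a among them, had an unadjusted p under 0.05 (limma), against 7.40% of all genes. Their intervals there left out 0. Of the 37 log2 fold changes, 25 were below 0 and 12 above, with a median of -0.03 and a range from -0.13 (Homer2) to 0.09 (Lrrtm3). Over all genes the share below 0 was 44.2% and the median was 0.02, and among those 9984 genes the share was 46.0%. The count below 0 depended on the libraries used. Without male cKO replicate 2 it was 18 of 37 with a median of 0.00, and without the C57-named libraries 19 of 37 with a median of -0.00. It was larger elsewhere, at 29 of 37 with a median of -0.05 under median ratio rescaling (all genes -0.00) and 32 of 37 with a median of -0.05 without male WT replicate 1. The median was also -0.05 without male cKO replicate 1, with 27 below 0, and -0.04 without the 2 libraries of conflicting sex, with 23 below 0.

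**Figure D2:**
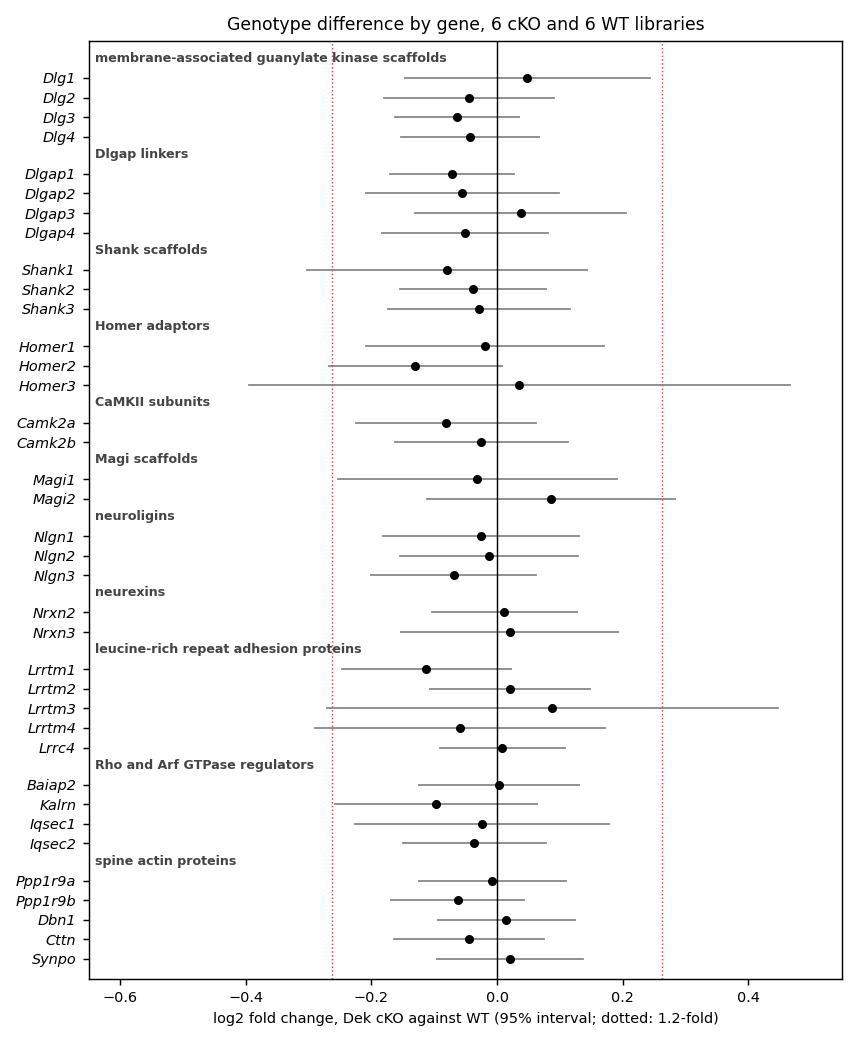
Log2 fold change of each gene, Dek cKO against WT (6 libraries each), grouped by role. Points are the limma estimates, lines their 95% intervals, and dotted lines mark a 1.2-fold change in either direction; all 37 intervals cross 0 and 31 stay between the dotted lines.

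Among the membrane-associated guanylate kinases, which anchor glutamate receptors and potassium channels, 0 of 4 passed. Dlg4, the PSD-95 gene, is the landmark of the postsynaptic density. The 6 WT values of Dlg4 ran from 343 to 399 TPM with a median of 384, and the 6 cKO values from 333 to 394 with a median of 368. Its log2 fold change was -0.04 (95% interval -0.15 to 0.07, adjusted p = 0.940). For Dlg3, the WT libraries lay between 79.8 and 89.1 TPM (median 85.4) and the cKO libraries between 73.6 and 88.5 (median 82.7). Dlg3, which codes for SAP102 and lies on the X chromosome (ENSMUSG00000000881, chrX:100767722-100818410, plus strand), had a log2 fold change of -0.06 (95% interval -0.16 to 0.04, adjusted p = 0.882). Both genes overlapped between genotypes across most of their range. Dlg2 (PSD-93) was at 87.6 ± 4.53 TPM in WT and 85.2 ± 8.30 in cKO (SD, n = 6 each). Dlg1 (SAP97) was at 67.0 ± 3.82 and 69.9 ± 11.3 TPM in turn. Its cKO values spread from the 2 highest, female cKO replicates 1 and 2 at 82.9 and 84.1 TPM, to the lowest, female cKO replicate 3 at 57.4 TPM.

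The Dlgap proteins bind the guanylate kinase domain of PSD-95 and, at their other end, Shank. Dlgap1 (ENSMUSG00000003279, chr17:69969073-70821413, plus strand) was the most abundant of the 4. The 6 WT values of Dlgap1 ran from 201 to 218 TPM with a median of 212, and the 6 cKO values from 179 to 213 with a median of 204. The log2 fold change was -0.07 (95% interval -0.17 to 0.03, adjusted p = 0.855). The lowest 2 values of the 12 were those of male cKO replicates 3 and 2. Dlgap2, Dlgap3 and Dlgap4 had log2 fold changes of -0.06, 0.04 and -0.05, with adjusted p-values of 0.946, 0.976 and 0.940. Shank proteins are the deeper scaffold that carries Homer and actin regulators. For Shank3, the WT libraries lay between 85.0 and 101 TPM (median 95.6) and the cKO libraries between 77.5 and 99.8 (median 94.6). Shank3, a gene in which loss of a copy causes Phelan-McDermid syndrome in people, had a log2 fold change of -0.03 (95% interval -0.17 to 0.12, adjusted p = 0.979). Shank1, the most abundant of the 3, was at 203 ± 27.9 TPM in WT and 192 ± 24.9 TPM in cKO, and its log2 fold change of -0.08 became 0.09 without the C57-named libraries. Shank2 was at 54.3 ± 3.17 and 52.9 ± 3.54 TPM.

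Homer proteins tie Shank to group I metabotropic glutamate receptors. Homer2 (ENSMUSG00000025813, chr7:81600481-81707527, minus strand) had the smallest p of the 37 genes. It was at 30.9, 28.5 and 28.7 TPM in the WT females, 27.8, 27.1 and 26.9 in the WT males, 27.4, 24.8 and 27.9 in the cKO females and 26.6, 21.7 and 27.0 in the cKO males. The lowest value belonged to male cKO replicate 2 and the highest to female WT replicate 1, and the genotypes overlapped between 26.9 and 27.9 TPM. Mean levels were 28.3 ± 1.46 TPM in WT and 25.9 ± 2.31 TPM in cKO, a log2 fold change of -0.13 (95% interval -0.27 to 0.01, adjusted p = 0.780). The 6 WT values of Homer1 ran from 61.6 to 72.0 TPM with a median of 65.3, and the 6 cKO values from 52.3 to 73.8 with a median of 69.8. Homer1, whose short splice form Homer1a is induced by activity, had a log2 fold change of -0.02 (95% interval -0.21 to 0.17, adjusted p = 0.994), and gene-level values do not separate its splice forms. Homer3 varied more than any other of the 37 genes. It was at 63.0, 54.1 and 72.5 TPM in the WT females, 46.9, 59.5 and 53.9 in the WT males, 42.8, 47.8 and 69.6 in the cKO females and 67.6, 42.6 and 106 in the cKO males. Male cKO replicate 3 was the highest of the 12 and male cKO replicate 2 the lowest, so both extremes lay within 1 group. Its log2 fold change was 0.04 (95% interval -0.39 to 0.47, adjusted p = 0.995), the widest interval of the 37, and it was -0.13 without male cKO replicate 3, the library with the high Gfap level.

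Camk2a (ENSMUSG00000024617, on chromosome 18) codes for the CaMKII subunit found in excitatory forebrain neurons. It was at 1474, 1553 and 1579 TPM in the WT females, 1447, 1531 and 1572 in the WT males, 1479, 1366 and 1710.2 in the cKO females and 1533, 1353 and 1254 in the cKO males. The cKO libraries held both the highest value, in female cKO replicate 3, and the lowest, in male cKO replicate 3. The log2 fold change was -0.08 (95% interval -0.22 to 0.06, adjusted p = 0.905). Without the 2 libraries of conflicting sex it was -0.16 with an unadjusted p of 0.00966 and an adjusted p of 0.511 (limma). Camk2b, which binds actin, was at 653 ± 37.6 and 644 ± 62.9 TPM. The ratio of Camk2a to Camk2b was 2.34 ± 0.0761 in WT and 2.26 ± 0.175 in cKO libraries (SD, n = 6 each). The 6 WT values of Magi1 ran from 6.20 to 8.22 TPM with a median of 6.98, and the 6 cKO values from 5.83 to 8.32 with a median of 6.94. Magi1 had a log2 fold change of -0.03 (95% interval -0.25 to 0.19, adjusted p = 0.988). Magi2, a scaffold that binds neuroligins, was at 22.6 ± 1.66 and 24.2 ± 3.52 TPM.

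Of the adhesion genes, neuroligins bind neurexins across the cleft, Nlgn1 mainly at excitatory and Nlgn2 at inhibitory synapses. The 6 WT values of Nlgn1 ran from 16.7 to 21.2 TPM with a median of 17.9, and the 6 cKO values from 16.1 to 20.1 with a median of 17.9. Its log2 fold change was -0.03 (95% interval -0.18 to 0.13, adjusted p = 0.983). For Nlgn3, the WT libraries lay between 35.6 and 44.1 TPM (median 40.1) and the cKO libraries between 35.8 and 42.0 (median 37.7). Nlgn3, the X-linked neuroligin (ENSMUSG00000031302, chrX:101299168-101325963, plus strand), had a log2 fold change of -0.07 (95% interval -0.20 to 0.06, adjusted p = 0.917). Nlgn2 was at 114 ± 8.33 and 113 ± 10.3 TPM. All 3 estimates were below 0 and none passed. The neurexins Nrxn2 and Nrxn3, the presynaptic partners, had log2 fold changes of 0.01 and 0.02.

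Lrrtm proteins are neurexin ligands that promote excitatory synapses. Lrrtm1 (ENSMUSG00000060780, chr6:77242689-77257791, plus strand) had the second smallest p. It was at 54.9, 58.5 and 61.2 TPM in the WT females, 53.5, 60.9 and 58.4 in the WT males, 45.2, 52.1 and 53.4 in the cKO females and 59.3, 55.3 and 56.7 in the cKO males. Female cKO replicate 1 was the lowest of the 12, while the 3 cKO males lay within the range of the WT males. The log2 fold change was -0.11 (95% interval -0.25 to 0.02, adjusted p = 0.827). Lrrtm3 was at 11.0, 12.3 and 12.3 TPM in the WT females, 12.8, 14.3 and 15.8 in the WT males, 17.1, 15.1 and 7.71 in the cKO females and 15.8, 14.4 and 15.2 in the cKO males. Female cKO replicate 3 was lower than every other library, and the other 5 cKO values lay above most of the WT values. Its log2 fold change was 0.09 (95% interval -0.27 to 0.45, adjusted p = 0.972). It was 0.25 without the 2 libraries of conflicting sex (unadjusted p = 0.0298 and adjusted p = 0.634, limma), and -0.04 without the C57-named libraries. Lrrtm2, Lrrtm4 and Lrrc4, the last coding for netrin-G ligand 2, had log2 fold changes of 0.02, -0.06 and 0.01.

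Kalrn, an exchange factor for Rac that enlarges spines, was the most abundant of the GTPase regulators (ENSMUSG00000061751, chr16:33969073-34573532, minus strand). The 6 WT values of Kalrn ran from 223 to 261 TPM with a median of 243, and the 6 cKO values from 182 to 251 with a median of 236. Its log2 fold change was -0.10 (95% interval -0.26 to 0.06, adjusted p = 0.894), and male cKO replicate 2 held the lowest value of the 12. Baiap2 (IRSp53), a partner of Shank that bends membranes, had the smallest difference of the 37, a log2 fold change of 0.00. Iqsec1 and Iqsec2, exchange factors for Arf6 that act on receptor trafficking, had log2 fold changes of -0.02 and -0.04. Ppp1r9b (spinophilin), which holds protein phosphatase 1 in the spine, was the most abundant of the spine actin genes (ENSMUSG00000038976, chr11:94991035-95006899, plus strand). For Ppp1r9b, the WT libraries lay between 442 and 497 TPM (median 458) and the cKO libraries between 401 and 474 (median 449). Its log2 fold change was -0.06 (95% interval -0.17 to 0.04, adjusted p = 0.898). Its relative Ppp1r9a (neurabin) and the actin-binding genes Dbn1 (drebrin), Cttn (cortactin) and Synpo (synaptopodin, of the spine apparatus) had log2 fold changes of -0.01, 0.01, -0.04 and 0.02. None of these 9 genes passed.

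The relative use of family members in both genotypes is given as a description without a test. Dlg4 made up 61.1 ± 1.55% of the summed Dlg1 to Dlg4 level in WT and 60.7 ± 1.42% in cKO libraries (SD, n = 6 each). Shank1 made up 57.6 ± 2.12% and 56.8 ± 1.91% of the Shank level, and Nlgn2 66.0 ± 1.07% and 66.6 ± 2.22% of the neuroligin level. Within the Homer family, the share of Homer2 was 18.6 ± 1.08% in WT and 17.2 ± 2.38% in cKO. The share of Homer3 was 38.1 ± 3.23% in WT and 39.7 ± 7.89% in cKO, so its mean moved less than its spread. Lrrtm1 held 48.4 ± 1.65% and 46.2 ± 2.91% of the Lrrtm level.

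Within labelled females none of the 37 genes passed the adjusted test, a call met by 0.0165% of all genes. Lrrtm1 alone had an unadjusted p under 0.05, a level reached by 5.79% of all genes, with a log2 fold change of -0.21 (95% interval -0.38 to -0.04, unadjusted p = 0.0179, adjusted p = 0.829, limma). Lrrtm1 missed that level without female WT replicate 3 or without female cKO replicate 1. Within males none passed either, against 0.0165% of all genes, and none had an unadjusted p under 0.05, against 5.45%. The lowest unadjusted p in males was 0.0710, for Dlgap1 at a log2 fold change of -0.13. In females 27 estimates were below 0 and in males 22, against 45.7% and 44.7% of all genes. Of the 37 genes, 15 were below 0 in both sexes, 3 above 0 in both and 19 of opposite sign. With 3 libraries a group the intervals were wider. They stayed within a 1.2-fold change for 21 genes in females and 20 in males, and within 1.5-fold for 35 in each.

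The difference between the labelled sexes was tested as an interaction, the log2 fold change in labelled females minus that in labelled males. None of the 37 genes passed, where 0.00% of all genes did, and none had an unadjusted p under 0.05, against 4.23% of all genes. The smallest p was 0.0894, for Lrrtm1 at -0.20 (adjusted p = 0.966, limma). Homer3 had the largest estimate, -0.60 (95% interval -1.46 to 0.26), from -0.27 in females and 0.34 in males. In all, 3 of the 37 intervals of the interaction lay within a 1.2-fold difference and 32 within a 1.5-fold one. For the other genes a 1.2-fold difference between the labelled sexes lay inside the interval.

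Leaving out the 2 libraries of conflicting sex gave no adjusted call, but raised the number with an unadjusted p under 0.05 to 3 in the comparison of both sexes, 3 in females, 4 in males and 4 in the interaction. The share of all genes at that level was also higher in these fits, at 7.40%, 8.69%, 9.03% and 8.83% in the same order. In both sexes these were Camk2a, Lrrtm3 and Homer2. In females they were Dlg1 (log2 fold change 0.34, unadjusted p = 0.0020, adjusted p = 0.209), Lrrtm3 (0.44, unadjusted p = 0.00332, adjusted p = 0.251) and Lrrtm1 (-0.26, unadjusted p = 0.0124, adjusted p = 0.403), all by limma. In males they were Dlgap1, Camk2a, Iqsec2 and Kalrn, with log2 fold changes of -0.19, -0.22, -0.18 and -0.23 and adjusted p-values from 0.501 to 0.546. In the interaction they were Dlg1, Dlgap1, Lrrtm3 and Magi1, and for Dlg1 the estimate was 0.41 (unadjusted p = 0.00522, adjusted p = 0.342). In that interaction fit the median of the 37 estimates was 0.02 with 15 below 0 (median of all genes 0.02). Over all 12 libraries it was -0.03 with 22 below 0 (median of all genes -0.01). Without the 2 libraries of conflicting sex, the groups hold 2 cKO libraries a sex.

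**Figure D3:**
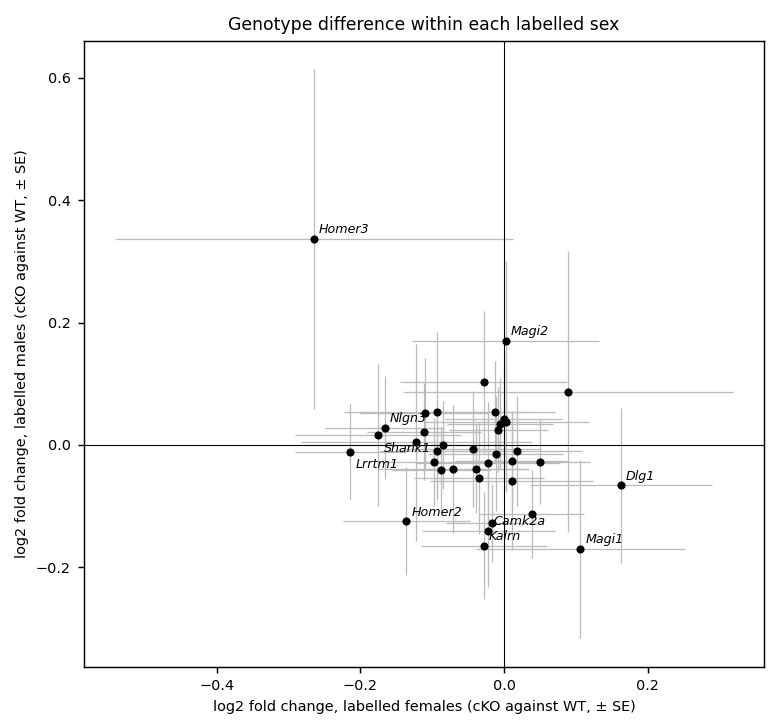
Log2 fold change (Dek cKO against WT) of the 37 genes in labelled females (x axis) and labelled males (y axis), with 1 point a gene and bars of 1 SE; names are given to the genes farthest from 0 in either sex. All points but Lrrtm1 (-0.21 in females) and Homer3 lie within 0.2 of 0 on both axes, and Homer3 stands apart at -0.27 in females and 0.34 in males.

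Each gene was also set against its own median over the 12 libraries. The median log2 deviation of the 37 genes ran from -0.16 to 0.07 between libraries, against a median log2 fold change of -0.03 between genotypes. Male cKO replicate 2 was the lowest library for 19 of the 37 genes and lay below the median for 32, with a median log2 deviation of -0.16. The summed level of the 37 genes was 5115 TPM there, the lowest of the 12, and the highest was 6079 TPM in female WT replicate 2. Over all tested genes the deviation of male cKO replicate 2 was -0.01. Its neuron markers deviated by -0.15, the lowest of the 12 libraries, its CA1 markers by -0.35 and its oligodendrocyte markers by -0.49. Its meninges markers, at 1.04, were the highest of the 12. Male cKO replicate 3 had oligodendrocyte markers at -0.49, CA1 markers at -0.28 and neuron markers at -0.003, with the 37 genes at 0.01. Male WT replicate 2 had oligodendrocyte markers at -0.83 and neuron markers at 0.10, with the 37 genes at 0.04. The part of these marker levels in the lower values of male cKO replicate 2 was not tested. Male WT replicate 1 was below the median for 33 of the 37 genes, at a deviation of -0.08, so low values occurred in both genotypes. Male cKO replicate 3 was the highest library for 10 genes and the lowest for 4. Without male cKO replicate 2, the median log2 fold change in males was 0.06 with 10 genes below 0, and 4 genes had an unadjusted p under 0.05 (Magi2, Homer3, Shank3 and Nrxn3), each with a positive log2 fold change and an adjusted p of 0.309 or more (limma). In that fit 9.58% of all genes had an unadjusted p under 0.05.

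**Figure D4:**
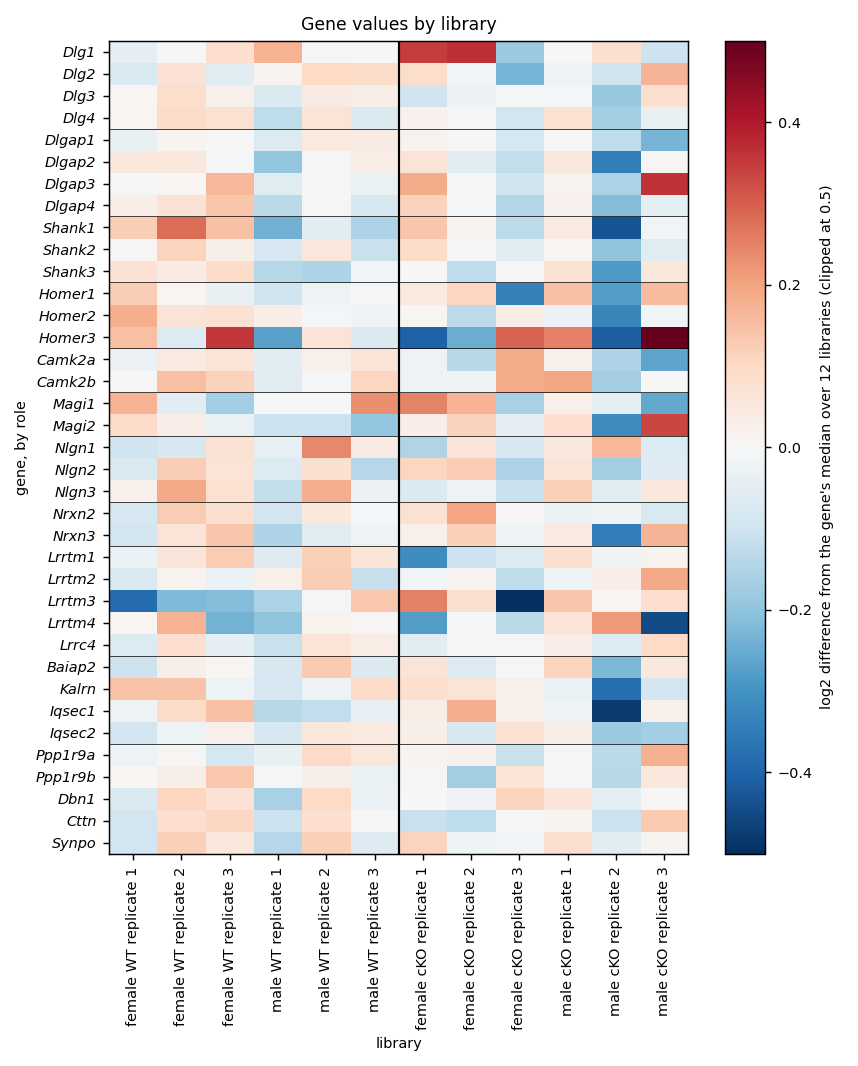
Log2 difference of each gene (vertical axis, ordered by role) from its own median over the 12 libraries (horizontal axis), clipped at 0.5 in either direction; the vertical line parts WT from Dek cKO. The column of male cKO replicate 2 is mostly blue, below the median for 32 of 37 genes, and the Homer3 row has the widest range.

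Homer3, singled out here after its values were seen, tracked the markers of hippocampal field CA3. The CA3 level of a library was the median log2 deviation of Grik4, Bok and Iyd. Over the 12 libraries Homer3 and the CA3 markers had a Pearson r of 0.935 (permutation p = 4.0e-05, adjusted p = 0.00052 over 13 marker lists). Spearman's rho was 0.895 (permutation p = 0.00026, adjusted p = 0.00338). Without the 2 libraries farthest from the median of the CA3 markers, r was 0.830. The same step, with the 2 libraries chosen anew for each list, gave -0.792 for CA1, where r had been -0.358. It gave 0.745 for dentate gyrus and -0.648 for cortex. Within genotypes, r was 0.712 over the 6 WT and 0.987 over the 6 cKO libraries. Among WT, female WT replicate 3 stood apart, with a CA3 deviation of 0.33 and Homer3 at 72.5 TPM. The other WT libraries lay at deviations of -0.12 to 0.04 and at 46.9 to 63.0 TPM. Their highest Homer3 value, in female WT replicate 1, came with a CA3 deviation of -0.09. The WT r without female WT replicate 3 was not computed. The next strongest list over all 12 libraries was cortex, at an r of -0.674 (permutation p = 0.00534, adjusted p = 0.0347) and a rho of -0.636 (adjusted p = 0.201). Within WT the cortex r of -0.949 was farther from 0 than that of CA3, and within cKO it was -0.672. Dentate gyrus markers had an r of 0.503 over all libraries, -0.348 within WT and 0.878 within cKO. Summed CA3 markers ran from 77.7 to 107 TPM in WT and from 70.7 to 130.1 TPM in cKO libraries, and they had no call between genotypes. The part of CA3 content in the Homer3 values was not tested.

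**Figure D5:**
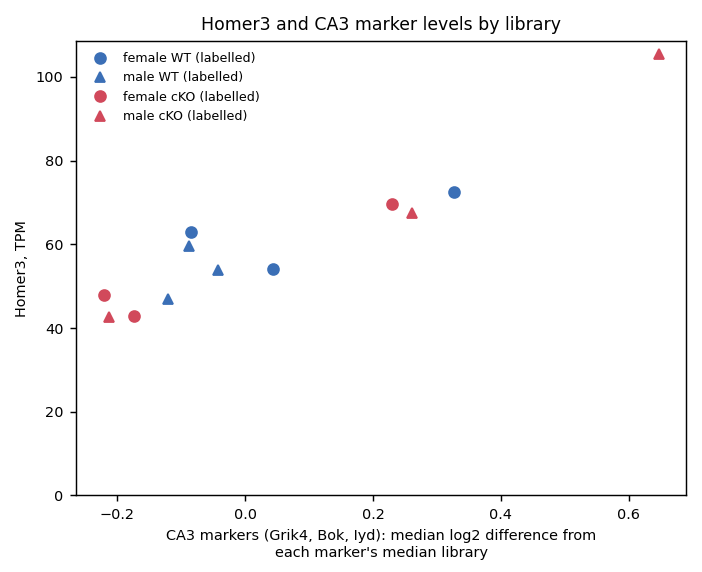
Homer3 level (TPM, vertical axis) against the CA3 marker level (median log2 deviation of Grik4, Bok and Iyd, horizontal axis), with 1 point for each of the 12 libraries, coloured by genotype and shaped by labelled sex. Over the 12 libraries the points rise together, with male cKO replicate 3 at the upper right. Among WT, female WT replicate 3 is the highest on both axes, apart from the other WT points.

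Genes of the group are long. Their genomic span had a median of 105 kb, against 23.4 kb for the 16188 protein-coding genes tested, and 9 of them (24.3%) exceeded 500 kb, against 1.32%. The log2 fold changes of the 9 long genes had a median of -0.04 with 7 below 0, the other 28 a median of -0.02 with 18 below 0, and the 213 protein-coding genes over 500 kb a median of -0.03.

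A wider list, also chosen with earlier results of these data known, held 102 other postsynaptic genes. Of these, 98 could be tested, since 2 were not matched to the table and 2 had a mean under 0.1 TPM. None passed (limma), and 5 had an unadjusted p under 0.05, all below 0, which is 5 of 98 against 6.64% of all genes. There were 65 estimates below 0 and 33 above, with a median of -0.03. Over all genes 44.2% were below 0, with a median of 0.02. The median of the 98 was -0.05 under median ratio rescaling and -0.01 without male WT replicate 2. By labelled sex, 3 of 98 had an unadjusted p under 0.05 in females (5.79% of all genes), with a median of -0.01, and 9 of 98 in males (5.45% of all genes), with a median of -0.07. In the interaction it was 9 of 98, against 4.23% of all genes, with a median of 0.04. Without the 2 libraries of conflicting sex these counts were 17, 13 and 22 of 98, against 8.69%, 9.03% and 8.83% of all genes. None was called in any of these fits. The smallest p belonged to Rasgrf1, an exchange factor for Ras, at 228 ± 15.5 TPM in WT and 201 ± 17.4 TPM in cKO (SD, n = 6 each), a log2 fold change of -0.18 with an adjusted p of 0.573 (limma). Frmpd4, a scaffold that binds PSD-95, was at 24.8 ± 1.56 and 21.3 ± 3.09 TPM, a log2 fold change of -0.23. Slitrk5, an adhesion protein, and Cnksr2, a scaffold of Ras signaling, had log2 fold changes of -0.11 and -0.12. The 29 other scaffold genes, of which 26 were tested, split evenly at 13 below and 13 above 0, while 37 of 50 other adhesion genes were below 0 with a median of -0.05.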

How the data were processed

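Hippocampal RNA of 12 mice was sequenced from poly-A selected, stranded, paired-end libraries. The authors deposited TPM values, which account for transcript length and library size, as 1 table. Their processing notes name kallisto and mm10, their methods name STAR and Salmon, and no source used here says which tool wrote the table. TPM keeps no read counts, so the count test of the study was not repeated and counting error is not given. Columns sum to 825750 to 845553 TPM. Groups follow the labels.

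Genes whose mean reached 0.1 TPM were kept, and log2(TPM + 0.1) was used throughout. Fold changes are on that scale. Differences were tested with limma 3.58.1 (R 4.3.3), two-sided with a trended prior variance, with Benjamini-Hochberg adjustment over all 18197 genes. A call needed an adjusted p under 0.05 and a fold change over 1.2. Both sexes were compared in 1 fit of 2 groups, and each sex and the interaction in 1 fit of 4 groups. These p-values set the difference between group means against the spread between the mice sequenced. Permutation tests used 100000 draws.

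The members and lists were chosen with earlier results of these data known. All 37 genes are named by role. The 8 with the smallest unadjusted p, the highest and the lowest by level, and Dlg4, Shank3, Homer1, Camk2a and Nlgn1 are given in full, and of the wider list the 4 with the smallest p. Other features were singled out after their values were seen. Marker lists covered neurons, astrocytes, oligodendrocytes, microglia, endothelium, choroid plexus, meninges, CA1, CA3, dentate gyrus, thalamus, cortex and immediate early genes. Alternatives changed the value added, the filter, the scaling, the prior variance, covariates and the libraries used. Steps were tested on simulated data. Python 3.11.15, pandas 2.3.3, numpy 2.4.6, scipy 1.17.1 and matplotlib 3.10.9 made tables and plots.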

Additional observations from a re-analysis of the deposited data

Results flagged for a closer look

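Among the 37 genes, 5 of 74 sets of 6 libraries of 1 genotype had an extreme library by Dixon's ratio (critical value 0.625), and chance gives about 1 in 20. Lrrtm3 was at 7.71 TPM in female cKO replicate 3, against 14.4 to 17.1 TPM in the other cKO libraries. Iqsec1 was at 64.8 TPM in male cKO replicate 2, against 88.8 to 102 TPM. Dlgap2 was at 27.8 TPM in male WT replicate 1, against 31.6 to 33.0 TPM in the other WT libraries. In female WT replicate 3, Dlgap3 was at 137 TPM against 117 to 123 TPM, and Ppp1r9b at 497 TPM against 442 to 462 TPM.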

How the results depend on the processing

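No member was called in any of 76 alternative fits, in any of the 4 comparisons. The number with an unadjusted p under 0.05 varied between fits. In both sexes it was 0, and 1 with median ratio rescaling, 1 with quantile normalization and 3 without the 2 libraries of conflicting sex. In females it was 1, and 2 with median ratio rescaling, 2 with quantile normalization, 2 in a fit on that sex alone and 3 without the conflicting libraries. In males it was 0, and 2 with median ratio rescaling and 4 without the conflicting libraries. In the interaction it was 0, and 4 without the conflicting libraries. With each library left out in turn the number ran from 0 to 3 in both sexes and in females, and from 0 to 4 in males and in the interaction. The highest counts came without female cKO replicate 3 (both sexes and females, 3 each) and without male cKO replicate 1 or 2 (males, 4 each; interaction, 4 without replicate 2). Without female cKO replicate 3 the share of all genes was 6.92% in both sexes and 8.28% in females. In males it was 7.69% without male cKO replicate 1 and 9.58% without replicate 2, and in the interaction 6.97% without replicate 2. The median of the members in males ran from -0.0414 without male WT replicate 1 to 0.0612 without male cKO replicate 2. The cause of these changes was not tested. In both sexes 11 members kept the sign of their estimate in all 23 alternatives and 26 changed it in at least 1. Replicate numbers did not pair the libraries (correlations of same-numbered deviations from -0.038 to 0.045), and with a replicate block 0 members were called, with 3 genes called in all. Without the C57-named libraries 10 genes were called in all, and 12 without the conflicting libraries, against 27. The depth behind each value is unknown.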
